A study of Mus musculus with 2 samples.

Results

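Single-exon incomplete splice matches are transcript models of 1 exon that the TALON annotator placed in the class ISM. The class is meant for models that cover part of an annotated transcript and lack the rest of its exon chain. All models with this class and 1 exon were taken from both deposited tables, with coordinates from the deposited gene models (mm10). There were 5281 of them among 203678 models: 2722 of 103386 in replicate 1 and 2559 of 100292 in replicate 2. The data are long-read RNA sequencing of total RNA from adrenal gland tissue of female B6CASTF1/J mice (a first-generation cross of C57BL/6 with a wild-derived CAST strain) aged 10 days, with no treatment named, as 1 group of 2 libraries. The labels of both libraries name animal 03, while those of the biological samples name 03 for replicate 1 and 04 for replicate 2, so whether the libraries come from separate animals is not settled here. Tests below compare the reads of these libraries, not conditions, and their p-values and exact intervals (Clopper-Pearson, 95%) cover counting error alone.

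A spliced messenger RNA ends in a last exon that usually carries the end of the coding sequence, the stop codon and the untranslated region up to the poly(A) tail. Cleavage before the tail is directed by a hexamer, most often AATAAA or its variant ATTAAA, a short distance upstream of the cleavage site. A long read that covers only that last exon has no splice junction, so the gene can be named from its position but not the spliced transcript it came from. TALON also has a genomic class for reads that overlap a gene on its strand and match none of its transcript structures. Single-exon models of this class are set beside the members throughout.

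The sequences at the 3′ ends are shown first, because most member reads lay in models that stopped at an annotated transcript end. The lines below give the last 30 bases, 5′ to 3′, of an annotated last exon in 8 genes (GENCODE M21 transcripts, build GRCm38/mm10). It is the exon that the gene's member with most reads overlapped most. The Cyp11a1 member is longer than this exon and spans 3 introns. Capitals mark 1 hexamer an exon, AATAAA where it is present and otherwise ATTAAA. Of these 8 exons, Ahsg and Gabarapl1 held neither hexamer in this stretch, and Thrsp held the variant alone.
Cyp11a1 (chr9:58026994-58027023, strand +): agggagttAATAAAcacttgaacactgagg
Ndufb3 (chr1:58595935-58595964, strand +): tcttaAATAAAattaaaaagaaaactgtaa
Idh3b (chr2:130279309-130279338, strand -): atagtcAATAAAcaaaatacacacatacta
Hsd3b1 (chr3:98852194-98852223, strand -): aaaaacagcAATAAAtattgtaatgcctta
Col4a2 (chr8:11449258-11449287, strand +): ccataAATAAAagatattctaaggacttga
Thrsp (chr7:97412938-97412967, strand -): tgtagtagcaATTAAAgaagaaaaggaaaa
Ahsg (chr16:22899414-22899443, strand +): ttctcaaataagaaggctctgagccaaaaa
Gabarapl1 (chr6:129542317-129542346, strand +): cttaccttaaaagtctacctggactcagaa

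The hexamers were then searched, in the sense orientation only, in the last 40 bases of every member equal to an annotated last exon. AATAAA was found in 65.0% of 2240 such members of replicate 1 and in 63.7% of 2039 of replicate 2. With ATTAAA added, overlaps counted as 1, the shares were 79.8% and 78.9%. Among the last exons of the most-read spliced transcript of genes with 50 or more reads in each library, 78.2% of 2062 held either hexamer. Both sets are ends of annotated last exons, with bases read from the annotation. Their like rates therefore say nothing on where the reads of members ended. In the 34 genes where members held 25% or more of the reads in both libraries, the share was 67.6%.

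The coding ends that 3 members cover are shown as well. The lines give the coding bases of the annotated last exon in 1 annotated transcript, with the stop codon in capitals, for a complex I subunit, a ribosomal protein and an autophagy protein.
Ndufb3 (chr1:58595649-58595805, strand +): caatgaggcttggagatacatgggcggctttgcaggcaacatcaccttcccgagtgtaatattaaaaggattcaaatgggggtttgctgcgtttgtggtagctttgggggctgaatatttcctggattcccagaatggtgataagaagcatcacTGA
Rpl39 (chrX:37082701-37082749, strand -): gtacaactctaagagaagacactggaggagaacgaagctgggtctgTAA
Gabarapl1 (chr6:129541102-129541167, strand +): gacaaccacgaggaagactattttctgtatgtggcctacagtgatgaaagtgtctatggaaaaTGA

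In these transcripts and with the stop codon counted, the coding bases of Ndufb3 made up 157 of the 316 bases of the member, in Rpl39 49 of 230 and in Gabarapl1 66 of 1245. The counts that follow use all annotated transcripts of a gene, by which the Gabarapl1 member holds 286 coding bases without the stop codon. Among last-exon members of protein-coding genes, 93.2% of 2526 in replicate 1 and 91.0% of 2347 in replicate 2 contained the whole stop codon. Without the stop codon, the median coding share of their length was 22.1% and 22.3%. No coding base was present in 156 and 187 of them, Thrsp among these.

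Replicate 1 held 593058 reads and replicate 2 held 772037 reads outside the spike-ins. The 6 cortex markers and 5 chromaffin markers, which define the labelled tissue, all had reads in both libraries. On the CPM scale (counts scaled to the reads used), markers of fat summed to 9186 and 13860 CPM, those of liver to 6999 and 1123 CPM, those of skeletal muscle to 10300 and 3410 CPM and those of blood to 5158 and 3899 CPM. The 5 kidney markers were at 0 in replicate 1 and summed to 627 CPM in replicate 2. Their part in the results below was not tested.

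Members held 17375 reads, 2.93% of replicate 1 (interval 2.89 to 2.97%), and 24210 reads, 3.14% of replicate 2 (3.10 to 3.18%), or 3.03% ± 0.146 (SD, n = 2). Multi-exon incomplete splice matches held 9.66% and 8.08%, and genomic single-exon models 6.80% and 4.75%. The share of members was thus higher in replicate 2 while the shares of both similar classes were lower there. Members and genomic single-exon models together made up 9.72% and 7.89% of reads. Of these pooled reads, members took 30.1% in replicate 1 and 39.8% in replicate 2. A single gene, Cyp11a1, accounted for 4082 of the member reads of replicate 2; without this gene the member shares were 2.95% and 2.63%, and the order of the libraries turned.

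Most members were rare. In replicate 1, 39.1% had 1 read, and in replicate 2, 40.4%. The 17 and 27 members with 100 or more reads held 26.6% and 49.7% of the member reads. They lay in 2685 and 2516 genes, of which 37 and 43 had 2 members and none had more. Protein-coding genes held 95.7% and 95.1% of the members, and long noncoding genes held 82 and 73 members with 170 and 131 reads. Outside the annotated genes, loci classed as antisense held 17 and 34 members and those classed as intergenic 4 and 10. The median length was 624 and 591 bases, with a middle range (quartiles) of 331 to 1287 and 322 to 1230 bases.

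Most members coincided with an annotated exon. Both ends were equal to those of an annotated exon in 2320 members of replicate 1 (85.2%) and 2113 of replicate 2 (82.6%). A further 333 and 348 lay inside an annotated exon. None of the 10853 and 9526 genomic single-exon models equalled an annotated exon, although 57.7% and 59.8% of them lay inside one. The genomic class is defined by matching no annotated structure. How far this contrast reflects the class rule was not tested. An annotated intron was spanned, by a model that fits in no exon, in 12 and 12 members. These held 135 reads in replicate 1 and 4151 in replicate 2, and Cyp11a1 made up 4082 of the latter. The next were Dcun1d5 with 54 reads in replicate 2 and Pabpn1 with 40 reads in replicate 1.

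By position, last exons prevailed. Each member was given the position of the annotated exon it overlapped most, over all spliced transcripts of its gene. Last exons held 98.2% of member reads in replicate 1 and 98.8% in replicate 2 (98.5% ± 0.450, SD, n = 2), and 95.4% and 93.8% of the models. First exons held 0.604% and 0.4998% of reads, internal exons 0.322% and 0.112%, and 0.886% and 0.566% lay on no exon of a spliced transcript. For genomic single-exon models the last exon held 84.2% and 83.7% of reads, the first 4.06% and 4.92% and no exon 10.2% and 10.1%. The intervals of members and genomic models did not overlap at any position in either library, but they cover counting error alone. The classes are themselves set by whether a model matches an annotated structure. How far this rule sets the gap by position was not tested.

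**Figure D1:**
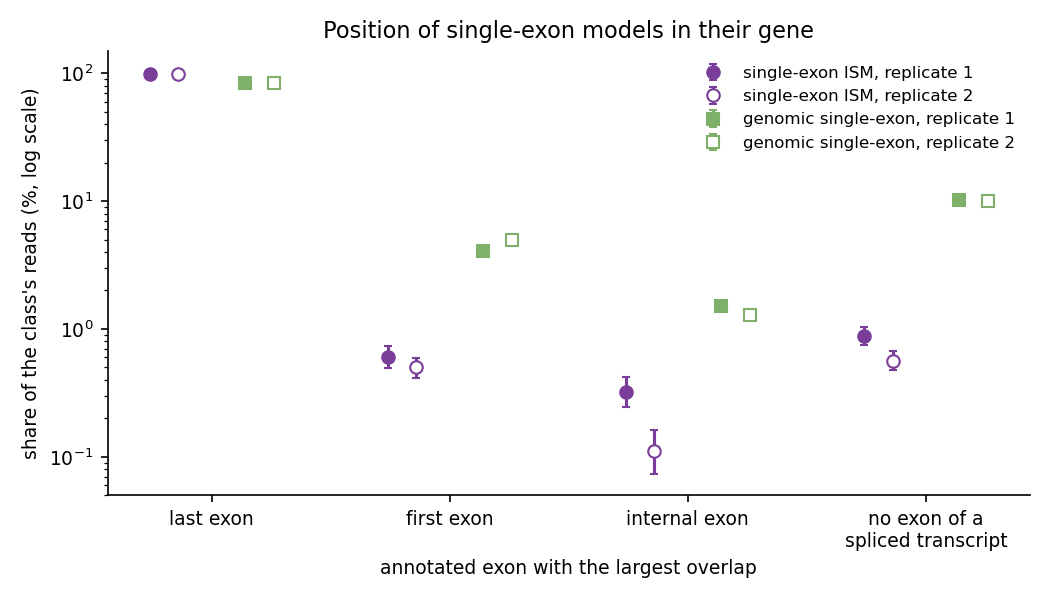
Share of reads (log axis, percent) by the annotated exon that each single-exon model overlaps most, for members (circles) and genomic single-exon models (squares), replicate 1 filled and replicate 2 open, bars showing exact 95% intervals. Members lie at 98.2% and 98.8% for last exons and below 1% elsewhere, while genomic models reach 10.2% and 10.1% outside annotated exons.

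Members in a first exon were few and had at most 14 reads. The gene with most was Spink10, a serine protease inhibitor gene, with 10 reads in replicate 1 and 8 in replicate 2. Hk2, which encodes a hexokinase, had 3 and 7 reads on the same 537 bases (chr6:82773918-82774454) in both libraries, exon 1 of 18. Mrgbp had 14 reads in replicate 1 alone, on a model that spans 4 introns and whose position was tied. In internal exons the highest count was 15 reads, on exon 9 of 13 of the provisionally named gene Gm49673 in replicate 1. Ttc5 had 2 reads and 1 read on the same 160 bases of exon 5 of 6. These counts are too low to rank the genes.

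The ends of the models were asymmetric. In annotated genes, 88.5% of member reads in replicate 1 and 93.2% in replicate 2 lay in models ending within 50 bases of an annotated 3′ end of the gene. Only 0.542% and 0.547% lay in models starting within 50 bases of an annotated start. Multi-exon incomplete splice matches ended near an annotated end for 86.6% and 88.8% of reads and started near a start for 29.9% and 31.9%. Genomic single-exon models had 74.1% and 70.0% near an end and 6.19% and 6.45% near a start. Ends listed in the deposit are those of models and not of reads: the genomic model of Hsd3b1 in replicate 1, for example, is listed with 3 bases and 372 reads.

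**Figure D2:**
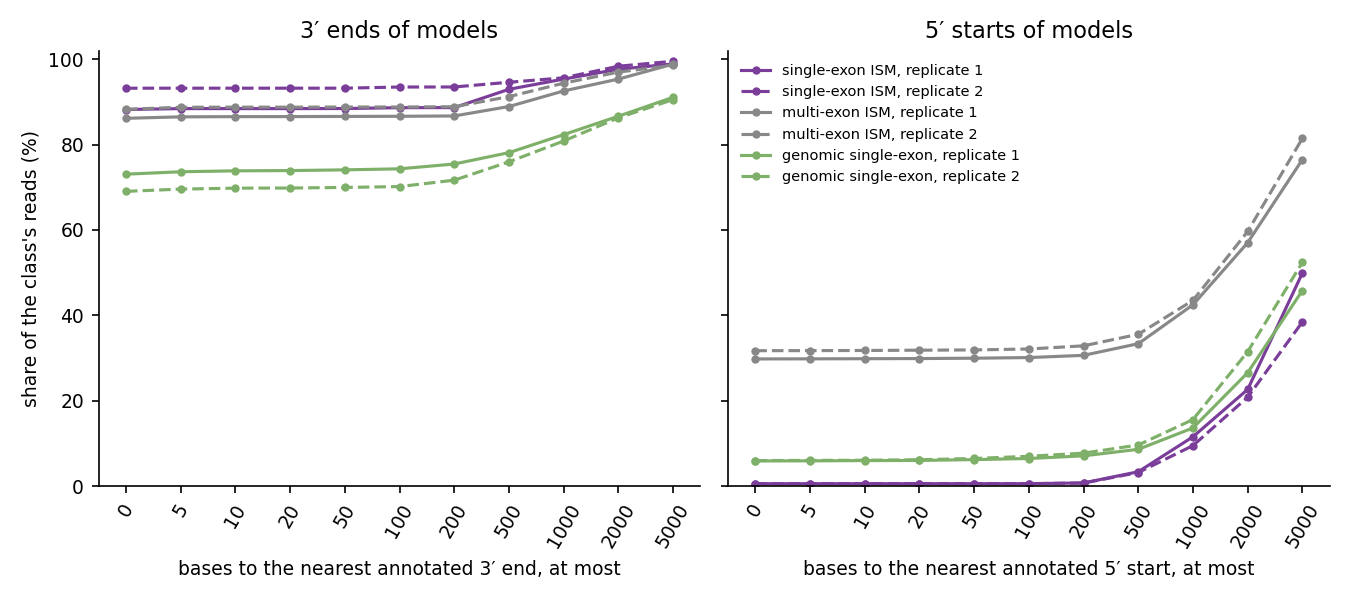
Cumulative share of reads (percent) in models whose 3′ end (left) or 5′ start (right) lies within the distance on the horizontal axis (bases, unequal steps) of the nearest annotated end or start of the gene, for members, multi-exon incomplete splice matches and genomic single-exon models, replicate 1 solid and replicate 2 dashed. At 50 bases the members stand at 88.5% and 93.2% on the left and at 0.542% and 0.547% on the right.

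Members that did not reach an annotated end were looked at for the bases that follow them. Of the 329 and 315 members ending over 50 bases from one, 219 and 197 ended inside an exon with 20 more bases to read from the annotated transcript. At least 12 of these 20 bases were A in 15 (6.85%) and 23 (11.7%) of them. The median was 5 A in both libraries. Of 4841 and 4187 genomic single-exon models ending over 50 bases from an annotated end, 1106 and 1071 could be read so. At least 12 A followed 12.9% and 11.95% of these. Among all windows of 20 bases in the last exons of the tested genes, 1.28% held as many. Kcnk3, a potassium channel gene, is shown because its member ended before a stretch with at least 12 A in both libraries. It had 77 reads in replicate 1 and 103 in replicate 2. Its ends lie 1310 and 1308 bases before the nearest annotated end. The 20 bases after each end follow, with A in capitals.
Kcnk3, replicate 1 (member chr5:30621891-30623542, strand +): AAAAAAgAAAgAAAgAAAAA
Kcnk3, replicate 2 (member chr5:30621891-30623540, strand +): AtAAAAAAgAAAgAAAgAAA

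The share of a gene's reads that members took was examined in 2162 genes with 50 or more reads in each library. Members were seen in 843 of them in replicate 1 and 794 in replicate 2, in 501 in both and in 1026 in neither. The median share was 0% in both libraries; over the genes with a member in the given library it was 3.77% and 2.57%. Members took at least 10% of the reads of 186 and 131 genes, at least 25% of 64 and 44, and at least 50% of 12 and 14. Where a last exon with a sequence was found, its median length was 650.5 bases in 494 of the 501 genes with members in both and 881.5 bases in 937 of the 1026 with no member. Median gene reads differed as well, 113 and 161 against 85.0 and 118, which was not separated from length here.

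In 8 genes members took at least 50% of the reads in both libraries: Ndufb3, Rpl39, Gtf2ird1, Ahsg, Mcee, 1500015O10Rik, Coq3 and Col4a2. Ndufb3, a subunit of respiratory complex I, had 358 of 491 reads in replicate 1 (72.9%, interval 68.8 to 76.8%) and 736 of 1009 in replicate 2 (72.9%, 70.1 to 75.7%). In both libraries the member was the last of 3 exons (chr1:58595649-58595964, + strand), and annotated transcripts had only 131 and 267 reads. Mcee, the epimerase of the methylmalonyl-CoA pathway, had 127 of 219 and 238 of 388 reads in its last exon (58.0% and 61.3%). Col4a2, a basement membrane collagen chain, had 202 of 375 and 204 of 406 reads in exon 48 of 48 (53.9% and 50.2%). Rpl39, a protein of the large ribosomal subunit, had 224 of 339 and 370 of 595 reads (66.1% and 62.2%). Ribosomal protein genes can have near-identical copies, and whether reads of such copies were counted for Rpl39 was not tested. None of the 8 passed the test of a difference in share between the libraries, beside 5.13% of all 2162 tested genes. They were chosen for high shares in both libraries, so this outcome adds nothing on agreement.

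Among the genes with most member reads, several had close shares in both libraries. Cidea, a lipid droplet protein of fat, had 694 of 1794 reads in replicate 1 and 1256 of 3275 in replicate 2 (38.7% and 38.4%). Ahsg, the liver-made plasma protein fetuin-A, had 1083 of 1838 and 224 of 367 reads (58.9% and 61.0%). Its member reads were 6.28-fold higher per read used in replicate 1 (exact binomial test, Benjamini-Hochberg adjusted p = 2.3e-186), and its gene reads were higher there too, beside the summed liver markers of 6999 and 1123 CPM. Fewer cells of a type and less RNA per cell cannot be told apart in such bulk tissue. Uqcrq of complex III had 279 of 1050 and 634 of 2235 reads (26.6% and 28.4%). Thrsp, which regulates fat synthesis, had 185 of 632 and 386 of 1263 reads (29.3% and 30.6%), and Idh3b of the citric acid cycle had 157 of 565 and 310 of 914 (27.8% and 33.9%). In each of these 5 genes the member had the same start and end in both libraries.

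**Figure D3:**
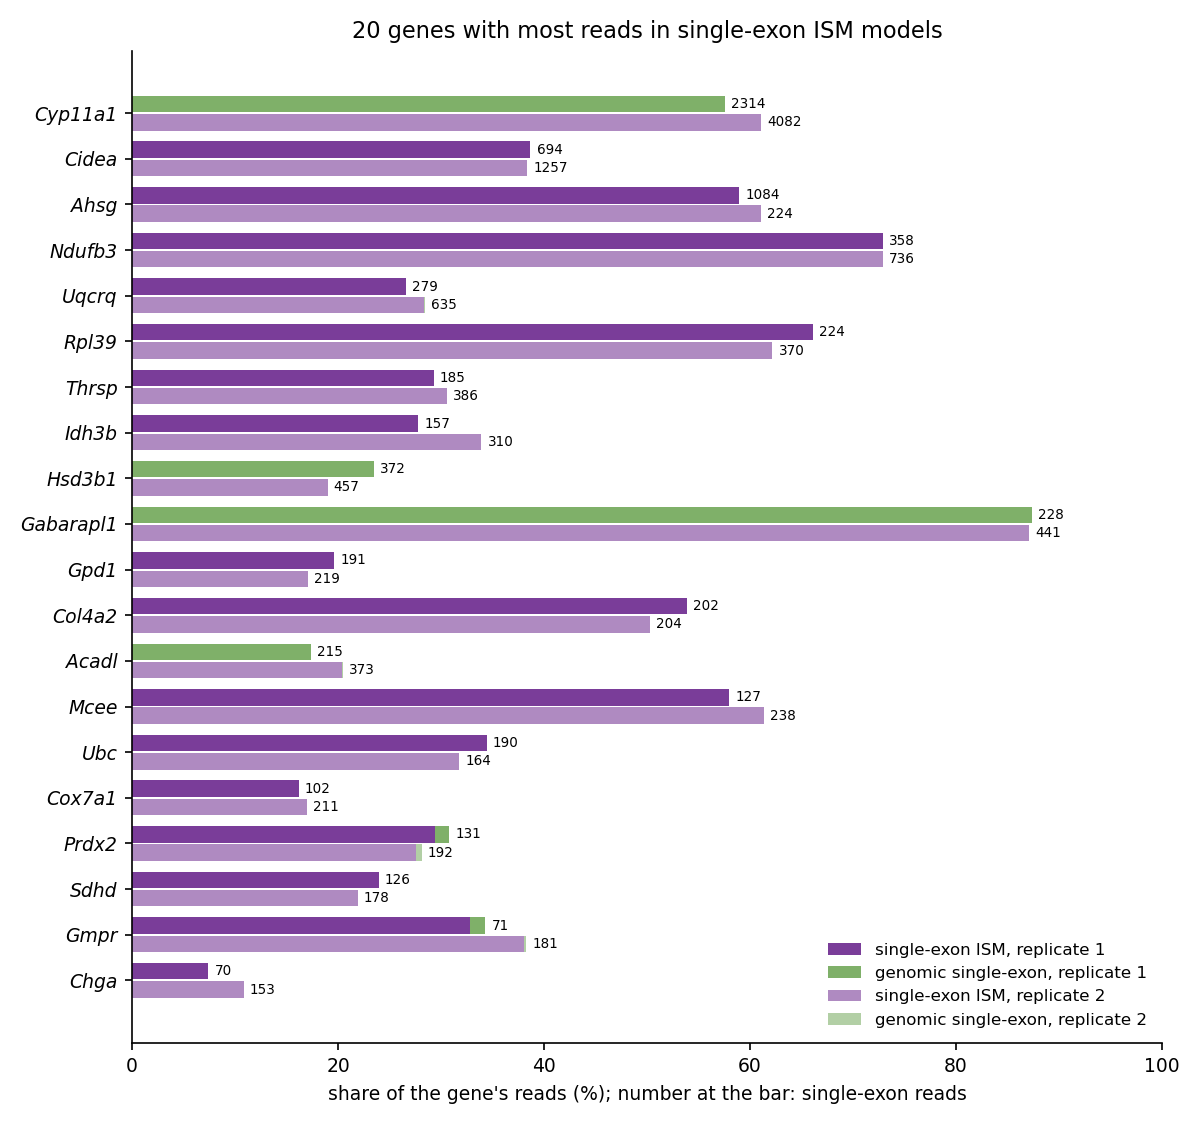
Share of the gene's reads (percent) in members (purple) and genomic single-exon models (green) for the 20 genes with most member reads, upper bar replicate 1, lower bar replicate 2, with the number of single-exon reads at each bar. In Cyp11a1, Hsd3b1, Gabarapl1 and Acadl the replicate 1 bar is green and the replicate 2 bar purple, at similar total lengths.

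At the other end, 149 of 412 genes with 200 or more reads in each library had no member read in either. Most reads over both libraries were those of Cox4i1, a complex IV subunit, with 0 of 3294 and 0 of 6100 in members, which allows shares of up to 0.0911% and 0.0492% (3 counts). Fabp4, the fatty acid binding protein of adipocytes, had 0 of 1950 and 0 of 4473. Absence of members did not mean absence of single-exon reads. Apoe, the apolipoprotein E gene, had 1619 of 3646 and 893 of 1932 reads (44.4% and 46.2%) in genomic single-exon models. Slc25a5, an ADP/ATP carrier of mitochondria, had 567 of 975 and 1304 of 2055 (58.2% and 63.5%).

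Agreement between the libraries was partial. A member was matched when a member of the same gene and strand in the other library overlapped it by at least 0.5 of the length of each. This held for 1027 members in each library, with 62.0% of the member reads of replicate 1 and 52.8% of replicate 2. Without Cyp11a1 the shares were 62.0% and 63.5%. Identical ends were found for 809 members. Of the unmatched members in annotated genes, 733 of 1674 (43.8%) and 722 of 1488 (48.5%) were overlapped by a genomic single-exon model of the other library. These held 71.4% and 86.3% of the unmatched reads. No rate for matched members stands beside these values, so they do not show that such overlap is particular to unmatched members. Of all members, 39.1% and 40.4% had 1 read.

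The share of member reads was tested in the 2162 genes by a two-sided Fisher's exact test per gene, called at an adjusted p below 0.05 and at least 10 percentage points. It differed in 111 genes (5.13%), 78 higher in replicate 1 and 33 in replicate 2. The same test called 89 genes for genomic single-exon reads (4.12%) and 7 for multi-exon incomplete splice matches (0.324%). For members and genomic single-exon reads pooled it called 6 (0.278%). In 107 of the 111 genes the genomic share moved the opposite way, and 3 were also called for the pooled reads. The median difference of the 111 was 17.9 points in the member share and 5.19 points in the pooled share. The 111 were picked for a member difference of at least 10 points, so the smaller pooled difference adds no support. Both shares have the same denominator, and no rate over all 2162 genes was set beside the 107. The 3 were Clic4, Myadm and Snrk, named after their values were seen, with pooled shares of 35.1% and 10.2%, 17.9% and 0%, and 31.8% and 12.9%.

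**Figure D4:**
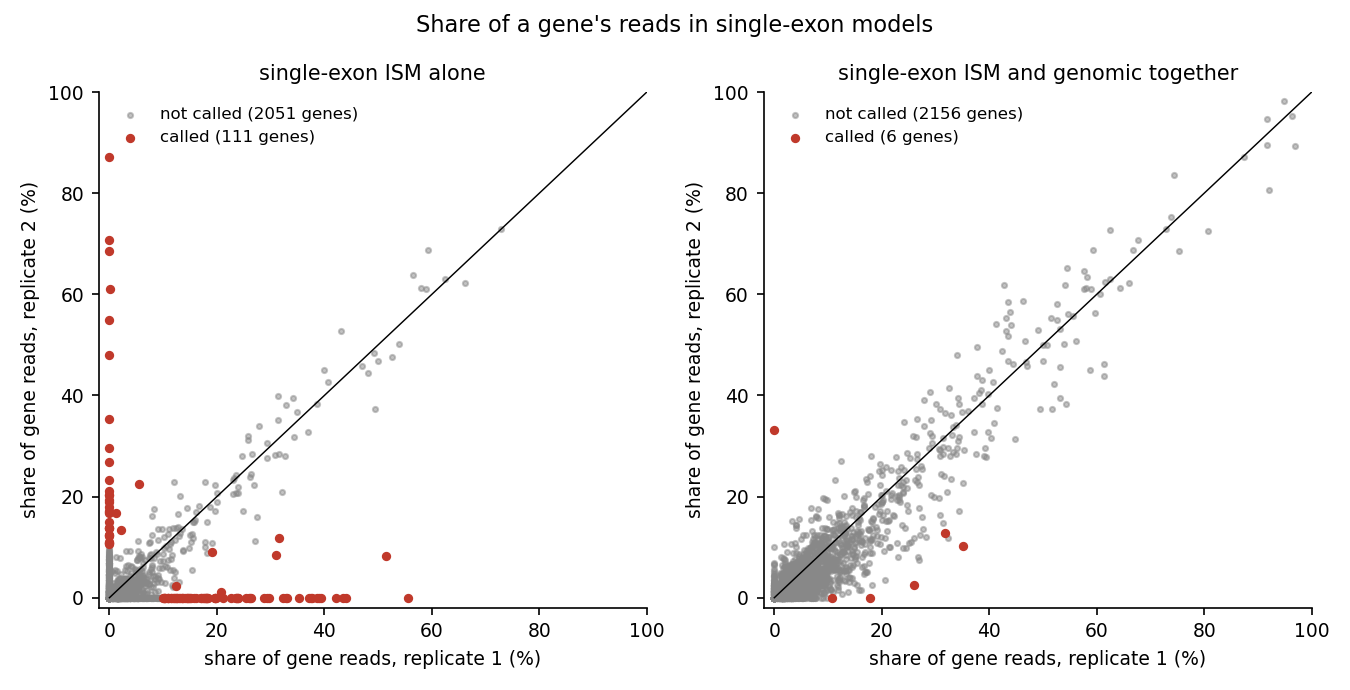
Share of a gene's reads in members alone (left) and in members and genomic single-exon models together (right), replicate 1 against replicate 2 (percent), 1 point for each of 2162 genes, red where Fisher's exact test with an adjusted p below 0.05 and a difference of 10 points called the gene. Most of the 111 called genes on the left lie on an axis, with no member read in 1 library, and 6 genes are called on the right.

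Across genes, as a description of libraries that share an annotation and a classifier, Pearson's r between the member shares was 0.910 over the 501 genes with members in both (Spearman's rho 0.798). Over all 2162 genes it was 0.625 (rho 0.401), while the pooled share gave 0.946 (rho 0.805) and the multi-exon share 0.930 (rho 0.851). Genes are not independent replicates.

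The leading class of single-exon reads was compared gene by gene. Of 294 genes with 20 or more single-exon reads in each library, 72 had at least 90% of them in members in both libraries and 141 at least 90% in genomic models in both. In 28 genes they stood under members in replicate 1 and under genomic models in replicate 2, in 29 the reverse, and 24 were mixed in at least 1 library. In all 57 genes that changed class, the leading models of both libraries overlapped, by a median of 57.8% of the span they cover together. The overlap could be slight: 4 of the genomic models were listed with under 20 bases, and that of Hsd3b1 overlapped by 0.256%. The 3′ ends of the leading models lay within 50 bases of each other in 49 genes and the starts in 10. The median offset of the start was 470 bases, with such short models included. Pooled single-exon shares of the 57 genes differed by a median of 3.46 points, against 3.14 points over all 294 genes. Rtraf and Cdc34 had the same start and end under a member in 1 library and a genomic model in the other.

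Cyp11a1, the enzyme that cleaves the side chain of cholesterol at the start of steroid synthesis, was the case with most reads among the 57. Replicate 1 had 2313 of its 4019 reads in genomic single-exon models and 1 in a member; replicate 2 had 4082 of 6682 in a member and 0 in genomic models. The member covered 1946 bases (chr9:58025078-58027023, + strand), began where the annotated exon starts that lies 10407 bases from the transcript start, and ended at the annotated 3′ end across 3 introns. The genomic model of replicate 1 ended at the same base and began 8986 bases from the transcript start, inside the preceding intron. Member shares were 0.0249% and 61.1%, with exact intervals far apart. Pooled shares were 57.6% and 61.1%, a difference of 3.51 points (Fisher's exact test, adjusted p = 0.047) that did not reach the 10 points of a call.

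**Figure D5:**
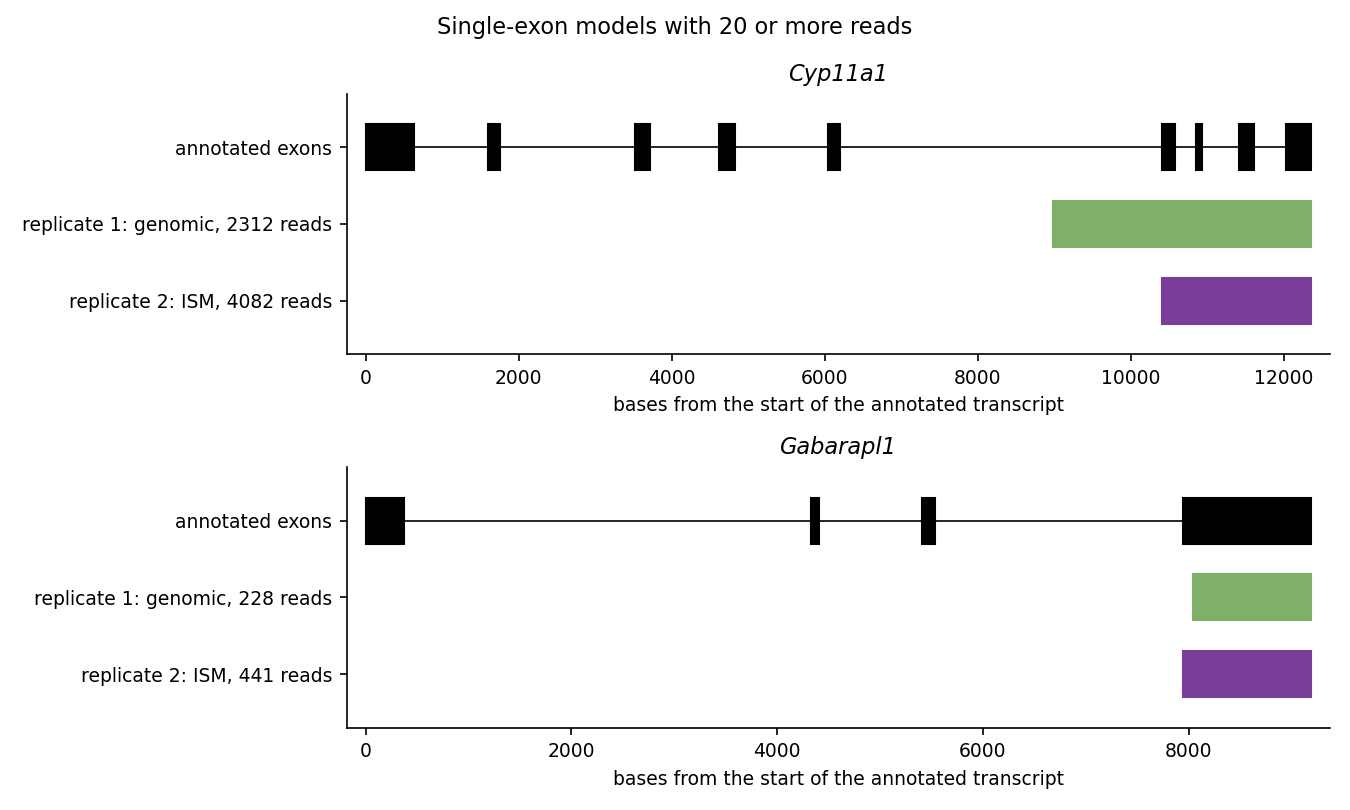
Annotated exons (black) and single-exon models with 20 or more reads (purple members, green genomic models) in Cyp11a1 and Gabarapl1, by distance in bases from the start of the annotated transcript. In both genes the models of replicate 1 and replicate 2 end at the same base, with 2312 and 4082 reads in Cyp11a1 and 228 and 441 in Gabarapl1.

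Gabarapl1, of the Atg8 family of autophagy proteins, had 0 and 441 reads in members and 228 and 0 in genomic models, of 261 and 506 gene reads. The pooled shares were 87.4% and 87.2%. Against 3 counts in replicate 1, its member reads were at least 113-fold higher per read used in replicate 2. The member was exon 4 of 4 (chr6:129541102-129542346, + strand) and the genomic model began 103 bases into it. Gadd45gip1, a protein of the mitochondrial ribosome, had 0 and 166 member reads against 84 and 0 genomic reads, with pooled shares of 67.7% and 70.6%. Acadl, a dehydrogenase of fatty acid oxidation, had 0 and 372 member reads against 215 and 1 genomic reads. In the other direction, Slc25a4, the ADP/ATP carrier of heart and muscle, had 222 and 0 member reads against 0 and 209 genomic reads (pooled 19.9% and 20.2%). Osgin1, Pabpn1 and Rtraf went from member shares of 55.6%, 44.0% and 43.5% in replicate 1 to 0% in replicate 2, with pooled shares of 55.8%, 54.0% and 51.7% there.

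Etfb and Efemp2 had few or no genomic reads on the other side. Etfb, which encodes a subunit of the electron transfer flavoprotein, had 49 of 1064 reads in a member in replicate 1 and 0 of 1991 in replicate 2, with no genomic single-exon read in either (4.61% and 0%, adjusted p of the share 3.4e-21, Fisher's exact test, below the 10 points of a call). Efemp2 had 82 of 108 reads in a member of replicate 1 that lay on no annotated exon of the gene (chr19:5493381-5494029), and replicate 2 had 0 member and 4 genomic reads of 49.

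The level of member reads was tested by a two-sided exact binomial test against library totals, adjusted over all 14414 rows of a gene and class with 10 or more reads summed, at an adjusted p below 0.05 and at least 2-fold (pseudocount 0.5 reads). Over all rows 974 (6.76%) were called. Among the similar classes, 242 of 1585 genomic single-exon rows (15.3%) and 155 of 2114 multi-exon incomplete splice match rows (7.33%) were called. Of the 585 member rows 215 were called (36.8%), 134 higher in replicate 1 and 81 in replicate 2. Of these, 184 had 0 reads in 1 library, and in 174 that library had genomic single-exon reads of the gene. The like share over all 585 member rows was not taken, so the 174 are not shown to be particular to called rows. Among the 397 member rows with reads in both libraries, 31 were called (7.81%). With member and genomic single-exon reads of a gene pooled, 94 of 2286 rows were called (4.11%), 36 of them genes of the 215. edgeR's exact test, with a dispersion estimated from these same libraries, called 0 of the 585 rows, with 100 at an unadjusted p below 0.05. Over all classes it also called 0 rows, so this 0 is not particular to members. Its dispersion took in the difference between the libraries.

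Gene lists of the tissue were read for their members. Of 20 steroid synthesis genes, 16 had 50 reads in each library, 9 of them a member in replicate 1 and 10 in replicate 2, with median shares of 0.216% and 0.328% beside 0% over all tested genes. In share 4 of the 16 were called, beside 5.13% of all tested genes, the share beside which the calls of the other lists also stand. Cyp11a1, Hsd3b1 and Scarb1, the receptor that takes up high-density lipoprotein cholesterol, were called higher in replicate 2 and Nr5a1, the steroidogenic transcription factor, higher in replicate 1; all 4 had genomic reads instead in the other library. Hsd3b1, which encodes the 3β-hydroxysteroid dehydrogenase, had 0 and 457 member reads against 372 and 0 genomic reads, with pooled shares of 23.5% and 18.98%. Nr5a1 had 38 of 130 and 0 of 183 member reads against 0 and 37 genomic reads. Star, which moves cholesterol into mitochondria, had 7 of 643 and 70 of 1294 member reads (1.09% and 5.41%), a difference below 10 points. None of the 16 was called for the pooled share, beside 0.278% of all tested genes.

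Of 9 tested chromaffin genes, 5 had a member in replicate 1 and 7 in replicate 2, and none was called. Chga, the granule protein chromogranin A, had 70 of 946 and 153 of 1413 reads in members (7.40% and 10.8%). Pnmt, the enzyme that makes adrenaline, had 0 of 191 and 34 of 433 member reads against 21 and 0 genomic reads. All 48 nuclear genes of the respiratory chain were tested: 28 had a member in each library, 21 in both and 13 in neither. Their medians were 0.717% and 0.243%, and Sdhc alone was called, with 12 of 101 and 0 of 147 member reads against 0 and 11 genomic reads. Of 73 tested cytosolic ribosomal protein genes, 34 had no member, the medians were 0%, and Rpl4 and Rps9 were called higher in replicate 1. Rpl39 stood at 66.1% and 62.2%, while the ribosomal protein genes pooled had 2.71% and 2.01% of reads in members.

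Of the 9 genes of the fat list, all tested, 6 had a member in replicate 1 and 7 in replicate 2, beside 843 and 794 of all 2162 tested genes. Their medians were 3.31% and 1.28%, and none was called. Adipoq, which encodes the hormone adiponectin, had 27 of 181 and 40 of 324 reads in members (14.9% and 12.3%). Ucp1, the uncoupling protein of brown fat, had 43 of 1300 and 26 of 2330 (3.31% and 1.12%). Of 12 tested extracellular matrix genes, 7 had a member in each library, with medians of 1.48% and 2.52%. Col18a1, a basement membrane collagen chain, was the 1 called, with 0 of 93 and 18 of 85 member reads against 14 and 0 genomic reads. Of 17 tested splicing regulators, 8 had a member in each library and the medians were 0%. Srsf2, a serine and arginine rich splicing factor, was called, with 28 of 188 and 0 of 229 member reads against 0 and 23 genomic reads. Of 4 tested long noncoding genes, Meg3 alone had member reads, 37 in replicate 1 and 0 in replicate 2, and was called. No gene of any of the 8 lists was called for the pooled share, beside 6 of all 2162 tested genes (0.278%). At that rate the absence of calls is not particular to the lists.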

How the data were processed

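Per the labels, 2 long-read RNA libraries of 1 group were deposited. For each library the authors deposited raw read counts of each transcript model, without normalization, and TALON gene models on mm10, per the file headers. The sources used here do not name platform, aligner or versions. Models on spike-in sequences (13619 and 16617 reads) were left out. Members, tests and lists were chosen with earlier results of these data known.

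Named genes are the 20 with most member reads, the 10 highest and 10 lowest shares among genes with 200 reads in each library, the leading models at each position, the 10 largest called differences in share and level in each direction, and list members; some were not printed. The 8 genes with 50% or more, the members that span introns and Kcnk3 were named after their values were seen. Each library was annotated separately, so models were matched by position. Sequences came from GENCODE M21 transcripts.

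Python 3.11.15 with scipy 1.17.1 was used, R 4.3.3 with edgeR 4.0.16 and DESeq2 1.42.0 for alternatives of scaling and edgeR's exact test. Fisher's exact test was run on shares and the exact binomial test on levels, each adjusted by Benjamini-Hochberg over all genes or rows tested. Both were also run on simulated reads with counting error alone. That simulation held no spread between libraries, so it does not show how the tests behave under such spread. Other read minimums, overlaps and denominators were tried.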

Additional observations from a re-analysis of the deposited data

How the results depend on the processing

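With 1 sample on each side, the tests compare libraries and hold no estimate of the spread between animals. No paired analysis was possible because there is 1 group. The planned search for A in the genome after a model's end was not run, since no genome was used here; the deposited subtype is given for no member and yielded no value.

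The share of reads in members (3.03%) was 3.22% over annotated genes alone, 3.18% without models of 1 read, and, as settings chosen after seeing the data, 2.79% without Cyp11a1 and 8.81% pooled with genomic single-exon models. The share in a last exon (98.5%) was 99.5% by the most-read transcript alone, 99.3% with models of unanimous position, 99.2% with models at least 0.5 inside the exon and 94.6% with each model counted as 1. The median share of a gene (0%) was 3.17% over genes with a member and 3.25% pooled. The matched share (57.4%) was 49.7% with identical ends and 38.9% with each model counted as 1. Leaving out a library gave 2.93 to 3.14%, 98.2 to 98.8%, 0 to 0%, 88.5 to 93.2% (models ending near an annotated end) and 52.8 to 62.0% (matched).

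The 111 genes called in share became 38 with 100 reads, 194 with no minimum difference, 43 with 20 points and 6 pooled. The 215 called in level became 97 with 20 reads summed, 0 with edgeR's exact test (100 of 585 at an unadjusted p below 0.05) and 94 pooled. The edgeR test called 0 rows over all classes. TMM and DESeq2 size factors left 215.

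Pooling with genomic reads, added after seeing the data, turned the direction of 11 of the 20 named differences in share: Osgin1 0.214, Pabpn1 10.0, Rtraf 8.23, Kng1 19.2, Cltb 4.43, Meg3 7.68, Gabarapl1 -0.202, Ywhag -8.10, Cdc34 -3.40, Ece1 -3.13 and Gramd1b -3.09 points (replicate 2 minus 1). It turned 7 of the 20 named log2 ratios of level (replicate 2 to 1): Pcx 0.048, Rtraf 0.48, Pabpn1 0.048, Hsd3b1 -0.084, Gnas -0.064, Cyp21a1 -0.41 and Cox7b -0.056. The cause was not tested.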
